A study of Zea mays with 6 samples.

Results

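Among the gene models counted in maize leaves under drought, 71 of 44146 stood far higher in every library of the line W9706 than in any library of the line B73. They were chosen on these values: a gene was kept when its lowest level in the 3 W9706 libraries was at least 4 times its highest level in the 3 B73 libraries, and its W9706 mean reached 10 CPM (counts scaled so that all counts assigned to genes in a library sum to 1000000). A count of 0 was taken as 0.1 CPM. The levels of these genes are therefore a description, and no test of the lines against each other was drawn from them.

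Leaves of W9706 (genotype given as W9706, replicates 1 to 3) and of B73 (genotype given as wild-type B73, replicates 1 to 3) were collected on day 7 of drought, and the third leaf was used. Both lines had been raised in soil, 3 seeds to a beaker, at 26°C under days of 14 h and nights of 10 h. Both lines were under drought and no watered leaves were analysed here, so the contrast is one of lines and not of water supply. Whether the replicates are separate plants is not stated, so the p-values reflect how far these libraries vary, and that variation may be technical. In bulk leaf RNA, fewer cells of a type and less RNA per cell cannot be told apart.

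Maize inbred lines differ widely in gene content, copy number and regulatory sequence, and B73 is the line whose genome has served as the maize reference. The identifiers with the prefix Zm00001d belong to gene models annotated in B73. A gene that only W9706 carries has no row here, and W9706 reads must align to B73 sequence to be counted. Neither the files nor the RefSeq gene table pair these identifiers with symbols or products, and 0 of the 44146 matched that table, so the genes are given by identifier and their functions are not stated. For the same reason leaf, root, endosperm and anther markers could not be looked up, and the tissue could not be checked against the counts.

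Library totals lay between 25054048 and 32088105 assigned counts in W9706 and between 21084151 and 26631103 in B73. A count of 0 therefore allows a level of up to 0.0935 to 0.120 CPM in W9706 and 0.113 to 0.142 CPM in B73, a limit of 3 counts that covers counting error only. Of the libraries of each line, W9706 replicate 1 and B73 replicate 2 were nearest to the other line, with mean correlations of log2 CPM across the 22135 tested genes of 0.933 and 0.934, against 0.909 to 0.922 for the other W9706 libraries and 0.914 to 0.916 for the other B73 libraries. In the edgeR quasi-likelihood test over all 22135 genes, 15.2% were higher and 19.0% lower in W9706 at a Benjamini-Hochberg adjusted p under 0.05. With library size alone, the scaling of the rule, the balance was turned round, with 36.9% higher and 11.9% lower. All 71 genes passed that filter on low counts and that threshold, which the choice of the genes on the same contrast nearly ensures.

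The 71 genes were 0.549% of the 12921 gene models whose W9706 mean reached 10 CPM. The lowest W9706 library exceeded the highest B73 library by 4.03 to 197 times, with a median of 6.24 times. Most genes lay close to the limit, 21 of them between 4 and 5 times and 25 between 5 and 8 times. A further 12 lay between 8 and 16 times and 13 above 16 times. Over all 12921 genes the median of the same ratio was 1.03, and all 3 W9706 libraries lay above all 3 B73 libraries in 54.0% of them by library totals. On the log2 scale the edgeR fold changes of the 71 genes, W9706 over B73, ran from 2.25 to 8.45 with a median of 3.22, where the median of all tested genes was 0.01.

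**Figure D1:**
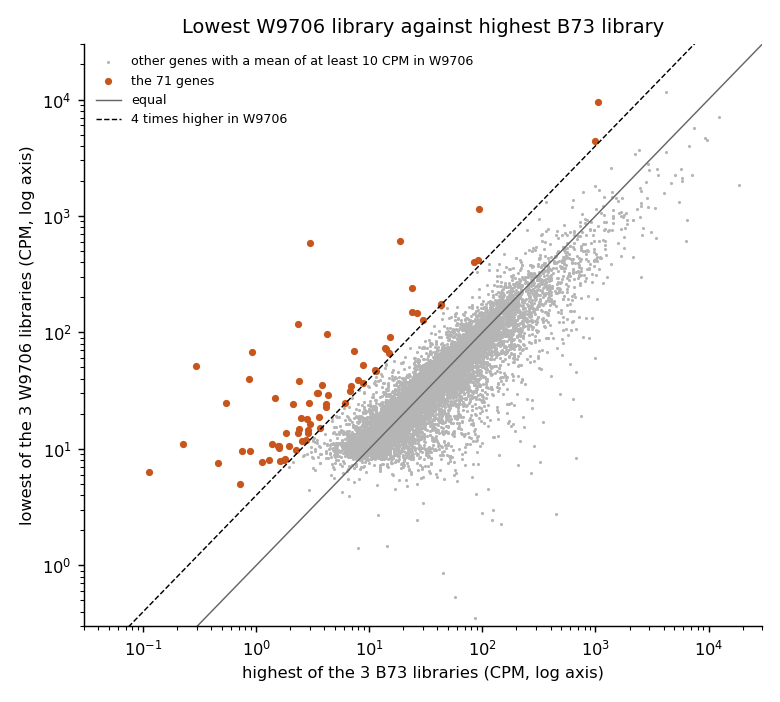
Each point is 1 gene, with its highest B73 library on the x axis and its lowest W9706 library on the y axis, both in CPM on log axes; orange points are the 71 genes and grey points the other genes whose W9706 mean reached 10 CPM. The 71 orange points all lie on or above the dashed line of 4 times, most of them close to it, and 13 lie more than 16 times above equality.

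The widest gap belonged to Zm00001d023984 on chromosome 10. It had 587, 642 and 586 CPM in W9706 replicates 1 to 3, against 1.43, 2.98 and 0.379 CPM in B73 replicates 1 to 3. The W9706 libraries were nearly level, and the fold change was 8.26 ± 0.56 (SE) on the log2 scale, or 9.04 without B73 replicate 2. Zm00001d027832 on chromosome 1 followed, with 51.0, 112 and 126 CPM in W9706, against 0.113, 0.290 and 0.285 CPM in B73. Its B73 values rest on 3, 7 and 6 counts, and its log2 fold change was 8.45 ± 0.55 (SE). Zm00001d024037, also on chromosome 10, had 121, 160 and 67.7 CPM in W9706, against 0.488 and 0.911 CPM in B73 replicates 1 and 2 and 0 counts in B73 replicate 3. It was the one gene of the 71 with no count in a library.

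Zm00001d038870 on chromosome 6 had 117, 305 and 475 CPM in W9706, against 0.376, 0.745 and 2.32 CPM in B73. Within W9706 it spread 4.05 times between replicates 1 and 3, and its log2 fold change of 7.80 had the largest standard error of the 71, 0.84. Without B73 replicate 3 it was 8.80. Zm00001d050577 on chromosome 4 had 24.8, 63.5 and 115 CPM in W9706, against 0.225, 0.538 and 0.332 CPM in B73. Zm00001d025229 on chromosome 10 had 39.5, 67.5 and 85.5 CPM in W9706, against 0.113, 0.704 and 0.854 CPM in B73. In all 3 of these genes W9706 replicate 1 was the lowest W9706 library and still lay more than 46 times above the highest B73 library.

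Zm00001d035214 on chromosome 6 had 11.02, 25.6 and 25.1 CPM in W9706, against 0.225, 0.207 and 0.142 CPM in B73, which is 6, 5 and 3 counts. Zm00001d052842 on chromosome 4 had 6.27, 11.2 and 14.5 CPM in W9706, against 0.113, 0.0414 and 0.0474 CPM in B73, which is 3, 1 and 1 counts. Single B73 counts of 3 or fewer are at or under what a count of 0 allows, so the B73 levels of these genes are known only roughly.

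Among the genes with the most counts, Zm00001d037894 on chromosome 6 stood out with 9444, 11282 and 12507 CPM in W9706, against 136, 1060 and 712 CPM in B73. CPM is not corrected for gene length, so this is an order of counts and not of transcripts. It alone took 0.944% to 1.25% of all counts in the W9706 libraries and 0.0136% to 0.106% in the B73 libraries. B73 replicate 1 held far less of it than the other B73 libraries. Zm00001d023343 on chromosome 10 had 4402, 4631 and 6340 CPM in W9706, against 782, 992 and 451 CPM in B73. Zm00001d043538 on chromosome 3 had 1149, 1471 and 1611 CPM in W9706, against 75.3, 92.9 and 13.3 CPM in B73. These 3 were the only genes of the 71 with a mean over 1000 CPM in W9706, and the B73 means of the first and second were 636 and 742 CPM.

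Together the 71 genes held 1.99%, 2.36% and 2.78% of all counts in W9706 replicates 1 to 3, against 0.132%, 0.272% and 0.164% in B73 replicates 1 to 3. Without Zm00001d037894 and Zm00001d023343 the shares were 0.607% to 0.896% in W9706 and 0.0400% to 0.0669% in B73. The median of the genes' mean levels was 34.7 CPM in W9706 and 2.11 CPM in B73. In W9706, 26 genes had a mean of 10 to 20 CPM, 28 of 20 to 100 CPM and 17 of at least 100 CPM. Zm00001d010586 on chromosome 8 had 400, 486 and 596 CPM in W9706, against 26.5, 69.7 and 83.3 CPM in B73. Zm00001d015239 on chromosome 5 had 422, 443 and 494 CPM in W9706, against 57.1, 90.5 and 54.6 CPM in B73, one of the highest B73 levels among the 71. Fold changes of these 2 were 2.76 ± 0.43 and 2.47 ± 0.20 (SE) on the log2 scale.

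**Figure D2:**
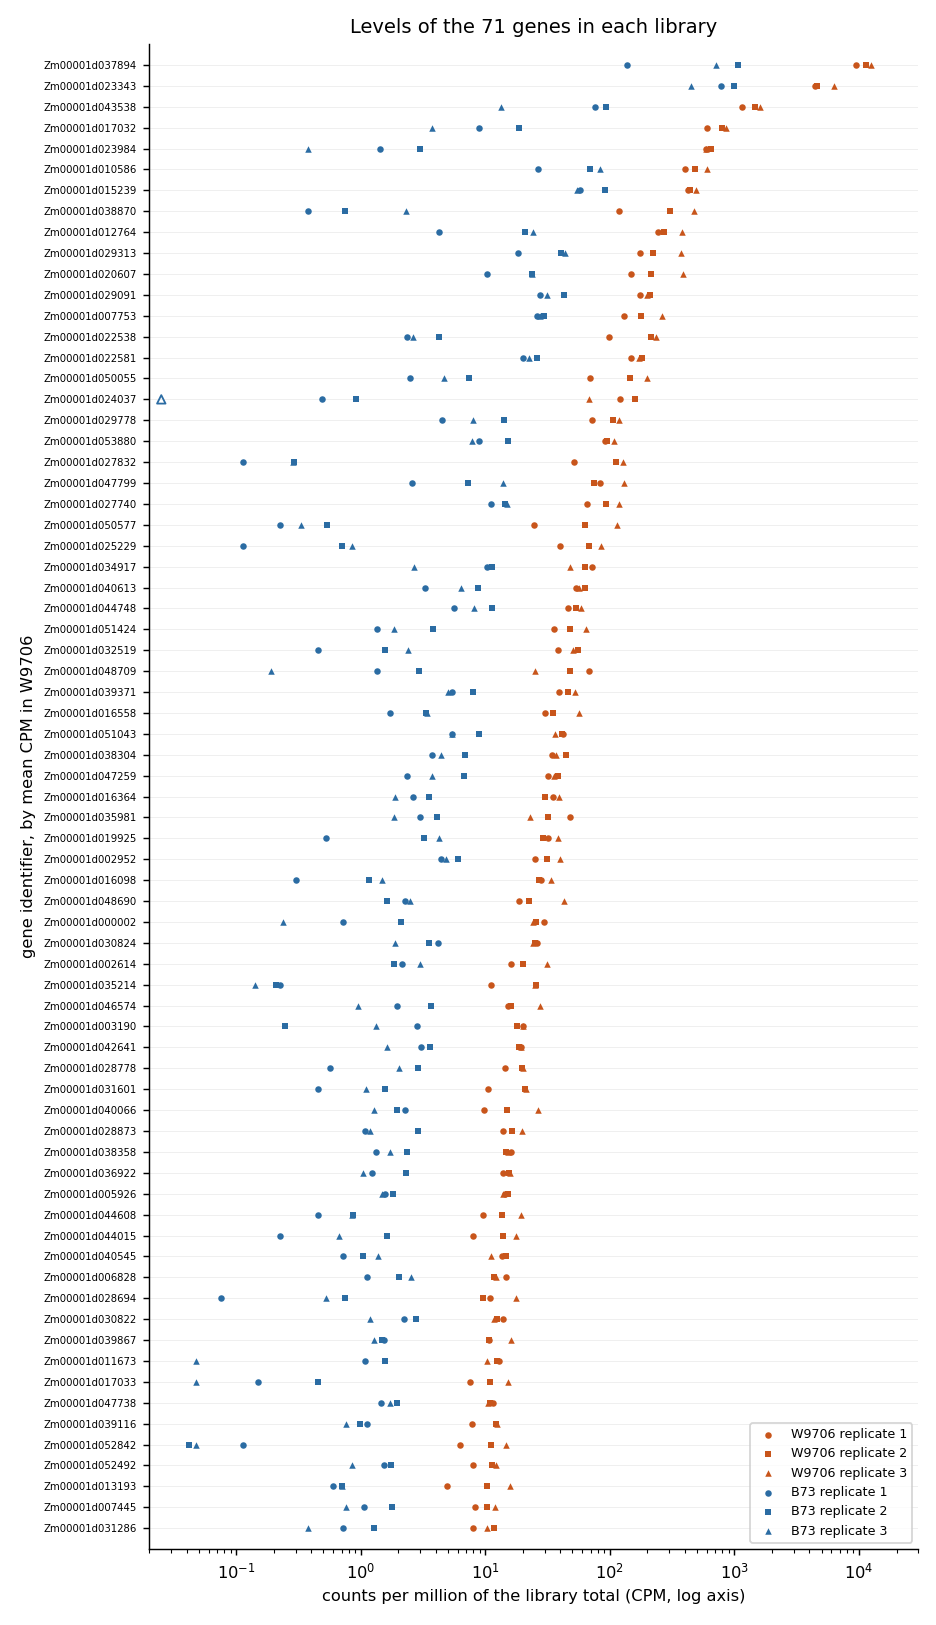
Levels of the 71 genes in CPM on a log axis, 1 row per gene sorted by mean CPM in W9706; orange symbols are the 3 W9706 libraries, blue symbols the 3 B73 libraries, and the open symbol at the left edge is the library with 0 counts (Zm00001d024037 in B73 replicate 3). In every row the orange symbols lie to the right of the blue ones, from 4.03 to 197 times apart, with B73 levels under 1 CPM in every library for 10 genes.

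B73 reads were present for nearly all of the genes. A count was listed in all 3 B73 libraries for 70 of the 71, and at least 10 counts in each of them for 55. The highest B73 library lay under 1 CPM for 10 genes, between 1 and 10 CPM for 43 and at 10 CPM or more for 18. B73 means were 0.237% to 17.4% of the W9706 means, with a median of 8.75%, and were under 1% for 8 genes. By library, the median B73 level was 6.60%, 11.9% and 7.53% of the W9706 mean in B73 replicates 1 to 3. The 71 are thus mostly genes counted in both lines at unequal levels, and not genes counted in W9706 alone.

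Libraries of a line differed more in these genes than in the median gene of that level. The median coefficient of variation was 19.9% over the W9706 libraries and 43.6% over the B73 libraries, against 8.26% and 9.82% for all 12921 genes of that level. The genes that the same rule, turned round, finds higher in B73 had a median coefficient of variation of 25.4% over the B73 libraries, so a wide spread in the higher line was not particular to the W9706-higher genes. The B73 values of the 71 rest on fewer counts, and how much of their spread is counting error was not tested. W9706 replicate 1 was the lowest W9706 library in 48 of the 71 genes (67.6%), and in 29.9% of the 12921. B73 replicate 2 was the highest B73 library in 48 of the 71 (67.6%), and in 41.3% of the 12921. Both held in 33 genes (46.5%), against 16.1% of the 12921. These are the libraries nearest to the other line, and the part that this plays in the levels of the 71 genes was not tested. Without both, the rule kept 168 genes.

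W9706 replicate 3 was at least 2 times above W9706 replicate 1 in 18 genes (25.4%), against 1.83% of the 12921 genes. The reverse held in 2 genes, and its share over the 12921 was not taken. The steepest of the 18 were Zm00001d050577 and Zm00001d038870, described above, with 4.63 and 4.05 times. In the opposite sense, Zm00001d048709 on chromosome 4 had 68.2, 47.8 and 24.9 CPM in W9706 replicates 1 to 3, against 1.35, 2.94 and 0.190 CPM in B73. Other genes were nearly level within W9706. The smallest coefficient of variation over the W9706 libraries, 2.05%, was that of Zm00001d042641 on chromosome 3, with 19.3, 18.7 and 19.5 CPM in W9706, against 3.04, 3.56 and 1.61 CPM in B73. A fixed high level in W9706 and a level that varied over 4 times between its libraries were both found among the 71.

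The rule was also applied to the libraries of 2 replicate numbers at a time. The genes so chosen were then examined in the pair of libraries left out. Leaving out replicate 1, the rule chose 116 genes, and in the left-out pair 101 of them (87.1%) were at least 4 times higher in W9706, against 1.58% of all genes of that level. With replicate 2 left out, 92 of 131 genes (70.2%) were at least 4 times higher, against 1.07%. Leaving out replicate 3, all 70 chosen genes were at least 4 times higher, against 2.09%. Only in this last choice were W9706 replicate 1 and B73 replicate 2, the libraries nearest to the other line, both used. The part that this plays in the share was not tested. The left-out pair had the same direction in 115 of 116, 131 of 131 and 70 of 70 genes, with median ratios of 7.87, 5.46 and 14.5. The exception was Zm00001d024669, with 5.51 CPM in W9706 replicate 1 and 6.46 CPM in B73 replicate 1. With replicates 1, 2 and 3 left out, 71, 70 and 64 of the chosen genes were among the 71 described here. For these the full rule already requires 4 times in every pair, so the shares are no separate support for them. The left-out libraries are of the same lines and may share plants or days with the others. The shares say how far the level recurs between libraries and nothing more.

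**Figure D3:**
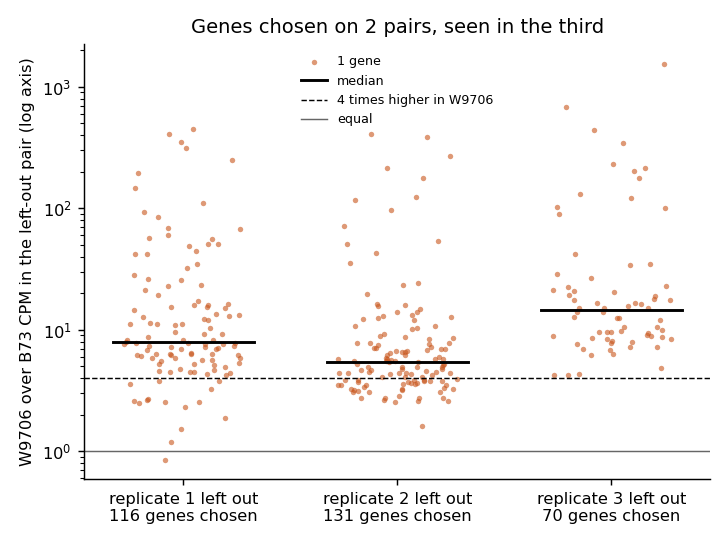
Each orange point is 1 gene chosen on the libraries of 2 replicate numbers, placed by its ratio of W9706 to B73 CPM (log axis) in the pair of libraries left out; black bars are medians, the dashed line marks 4 times and the solid line equality. The medians are 7.87, 5.46 and 14.5 with replicates 1, 2 and 3 left out, and 1 point lies below equality.

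Runs of adjacent identifiers held 4 of the 71 genes, in 2 pairs. The number stayed at 4 when up to 10 identifiers were allowed between members. For scale, members were 71 of the 44146 identifiers, the list in which adjacency was counted, and 0.549% of the 12921 genes of that level. Whether 4 is more than these shares would give was not tested. The first pair, Zm00001d030822 and Zm00001d030824 on chromosome 1, are adjacent in the files, which list no identifier between them. Zm00001d030824 had 25.9, 25.01 and 24.3 CPM in W9706, against 4.17, 3.52 and 1.90 CPM in B73. Zm00001d030822 had 14.0, 12.3 and 11.8 CPM in W9706, against 2.22, 2.77 and 1.19 CPM in B73. The lower gene of the pair was at 48.6% to 54.0% of the higher one in W9706 and at 53.2% to 78.8% in B73. The identifier before them, Zm00001d030821, missed the rule with a ratio of 3.53. It had 22.8, 25.4 and 20.2 CPM in W9706, against 3.76, 5.71 and 1.75 CPM in B73, so that 3 neighbours in a row stood higher in W9706. On the log2 scale it was 2.32 ± 0.35 (SE) above B73, and its adjusted p by edgeR was 0.00323. It was named after its values were seen.

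The second pair, Zm00001d017032 and Zm00001d017033 on chromosome 5, joined genes of very unequal counts. Zm00001d017032 had 604, 798 and 862 CPM in W9706, against 8.94, 18.5 and 3.70 CPM in B73. Zm00001d017033 had 7.58, 10.95 and 15.2 CPM in W9706, against 0.150, 0.455 and 0.0474 CPM in B73. The smaller gene was at 1.25% to 1.77% of the larger one in W9706 and at 1.28% to 2.46% in B73, and the B73 values are 4, 11 and 1 counts.

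Most reads at the locus of Zm00001d017033 are missing from the count used here. The files hold a count made without regard to strand, used here, and a count for each strand, and a read that touches genes on opposite strands is left out of the first as ambiguous. For 69 of the 71 genes the strand counts summed to within 1% of the first count. For Zm00001d017033 they summed to 20394, against 977. The next identifier, Zm00001d017034, had 6 counts over all libraries in the first column and 19430 in the strand columns. Reads at the locus of the 2 genes, taken from the first strand column of both, came to 130, 245 and 314 CPM of the library totals in W9706 replicates 1 to 3, against 2.97, 7.04 and 1.47 CPM in B73 replicates 1 to 3. The locus therefore lay 18.4 times higher in its lowest W9706 library than in its highest B73 library, at 20.4 times the counts shown for the member, and with both strand columns near balance the reads cannot be given to either gene. Among all 12921 genes of that level, 1.63% had strand counts over 1.1 times the first count.

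Strand counts were otherwise balanced, with 45% to 55% in the first strand column for 66 of the 71 genes. The widest departure was that of Zm00001d031286 on chromosome 1, at 63.7%. That gene had 8.02, 11.7 and 10.4 CPM in W9706, against 0.713, 1.28 and 0.379 CPM in B73, and was the gene nearest to the limit of 10 CPM with a mean of 10.0 CPM.

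Chromosomes were not given in the files, but the row order carries them. The 153 microRNA genes that the RefSeq table places on 1 chromosome by name (its assembly is Zm-B73-REFERENCE-NAM-5.0, from which no coordinates were taken) fell into blocks along the rows, and 152 of them shared the chromosome of a neighbouring microRNA gene. Gene models were placed by these landmarks and by the numbered series their identifiers form, which gave a chromosome to 70 of the 71 genes and left 1, Zm00001d000002, unplaced. All 10 chromosomes held members. Chromosome 1 held 14, chromosomes 3 and 4 held 9 each, chromosome 6 held 8, and chromosomes 2 and 5 held 7 each. Chromosome 9 held 5, chromosomes 7 and 10 held 4 each, and chromosome 8 held 3. In relation to the genes of that level on the same chromosome, members numbered from 0.253 per 100 on chromosome 8 to 0.745 per 100 on chromosome 6. With 3 to 14 genes on a chromosome these rates are coarse, and no test of them was made.

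**Figure D4:**
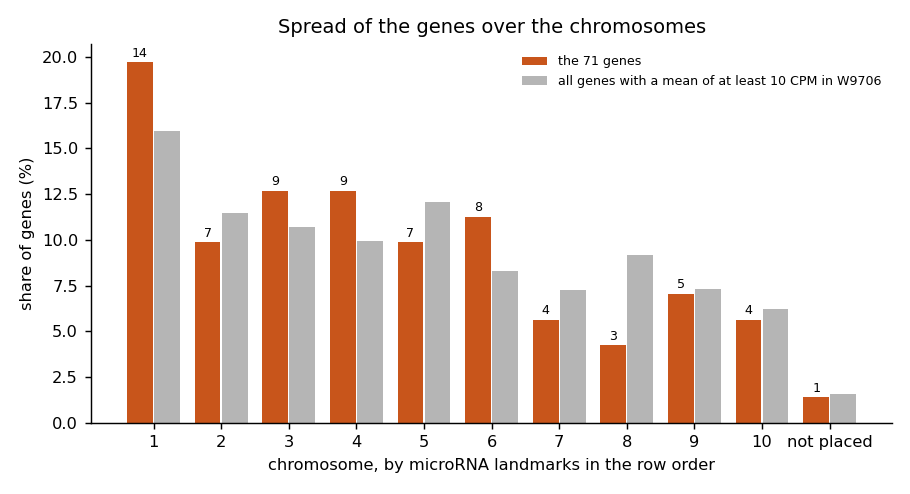
Share of the 71 genes (orange, with the number of genes above each bar) and of all genes whose W9706 mean reached 10 CPM (grey) on each chromosome, in percent, with chromosomes assigned by microRNA landmarks in the row order. The orange bars track the grey ones on most chromosomes, with 14 of 71 genes on chromosome 1 and 3 on chromosome 8.

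In the row order the median distance between consecutive members was 431 rows. Another member lay within 50 rows for 12 genes. Such spacing depends on how many genes are chosen, and no other set of equal number was placed for comparison. Whether the members lie closer together or farther apart than other genes was therefore not tested. Zm00001d048690 and Zm00001d048709 on chromosome 4 lie within 50 rows of each other and differed in opposite senses between W9706 replicates 1 and 3. Zm00001d048690 had 18.5, 22.5 and 42.9 CPM in W9706 replicates 1 to 3, highest in replicate 3, where Zm00001d048709 was lowest. In B73 Zm00001d048690 had 2.25, 1.61 and 2.47 CPM.

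Neighbours of the 71 genes had no part in the rule, and their calls were close in share to those of all tested genes. Of 334 tested genes within 5 identifiers of a member in the row order, 47 (14.1%) were higher and 61 (18.3%) lower in W9706 by edgeR, against 15.2% and 19.0% of all tested genes. The median log2 fold change of these neighbours was 0.01, that of all tested genes 0.01 and that of the 71 genes 3.22. Directly beside a member, 69 genes were tested, of which 13 (18.8%) were higher in W9706 and 8 (11.6%) were lower; their median was 0.10.

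**Figure D5:**
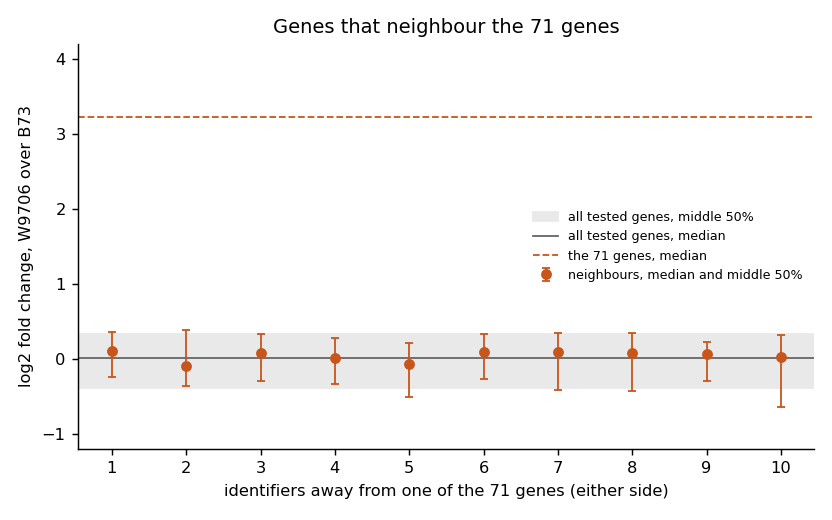
Median log2 fold change, W9706 over B73, of tested genes 1 to 10 identifiers away from the 71 genes on either side (points, with bars for the middle 50%), beside the median and middle 50% of all tested genes (grey) and the median of the 71 genes (dashed, 3.22). The medians of the neighbours run from -0.10 to 0.10, within the grey band at every distance.

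Just inside the limit of 4 times lay Zm00001d029313, with 175, 223 and 374 CPM in W9706, against 18.3, 40.5 and 43.4 CPM in B73, a ratio of 4.03. Zm00001d029091 and Zm00001d044748 followed at 4.05 and 4.07. Just outside lay Zm00001d014121 at 3.96, Zm00001d032721 at 3.95 and Zm00001d038267 at 3.94. Zm00001d014121 had 18.5, 23.0 and 23.8 CPM in W9706, against 2.93, 4.68 and 3.51 CPM in B73, and its ratio differed from that of the nearest gene inside by less than its own libraries of a line differed. Another 97 genes passed the limit of 4 times at a mean under 10 CPM in W9706.

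The number of genes depended on the scaling of the libraries. Library totals, on which the rule is built, place the median of all tested genes 0.28 higher on the log2 scale than TMM scaling, which corrects for differences in composition. With TMM-scaled sizes, which lower every W9706 level and raise every B73 level, 47 of the 71 genes met the rule. The same rule turned round, with every B73 library at least 4 times above every W9706 library, kept 71 genes by library totals and 101 by TMM. The ratio exceeded 32 times in 9 of the W9706-higher genes and in 1 of the B73-higher genes, and its highest value was 197 times among the W9706-higher genes and 54.9 times among the B73-higher ones. This difference was not tested.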

How the data were processed

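Leaf RNA of W9706 and B73, 3 libraries each, was sequenced from NEBNext Ultra libraries, per the labels' protocols. The authors deposited raw counts for each gene, unstranded and for each strand, laid out as STAR writes them. The submitters' processing notes name STAR. Its version is not given in the sources used here, nor are build and annotation. Per the file headers, 4 summary lines hold unmapped, multimapping, unassigned and ambiguous reads; these stayed out of library sizes, and genes with near-identical copies are uncertain.

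The unstranded count column was used. CPM for the rule used library totals. All 22135 genes kept by filterByExpr were fitted with edgeR 4.0.16 (TMM, robust dispersions, quasi-likelihood F test, Benjamini-Hochberg adjustment) in R 4.3.3, W9706 over B73, and the standard error is the log2 fold change divided by the root of F. DESeq2 1.42.0 was an alternative. The fit and the rule were run on simulated data, whose outcome is not given here and from which no support is drawn. Deviations from the line means correlated at 0.218, 0.111 and 0.131 between libraries with the same replicate number (log2 CPM, prior count 2), all over the limit of 0.1. Between libraries of unlike number they ran from -0.228 to 0.107. The highest of these, W9706 replicate 3 with B73 replicate 2, was also over that limit. The numbers were taken as pairs in an alternative fit with a replicate block, and whether they mark pairs is not stated. No libraries were duplicates, since every pair within a line gave a chi-square per degree of freedom of 11.2 or more.

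The genes named are those with the highest means in either line, the widest gaps, adjacent identifiers, the values nearest the limit and the largest or smallest spread in W9706. Zm00001d048690, Zm00001d048709, Zm00001d031286, Zm00001d030821, Zm00001d024669 and the overlapping loci were added after their values were seen. Members, lists and tests were chosen with earlier results of these data known. Gene symbols, product classes, tissue markers and sequences were planned and could not be matched to these identifiers.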

Additional observations from a re-analysis of the deposited data

Results flagged for a closer look

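Loci whose reads the unstranded count leaves out as ambiguous were seen in the strand columns, which the rule and the fits above do not use. The locus of Zm00001d017033 and Zm00001d017034, described above, is one of them. Applied to the sum of the strand columns, the rule brought in 2 genes that the unstranded column shows at or near 0. For a single gene, CPM in a strand column are scaled here to the total of that column. That total is smaller than the library total, so these levels stand higher than CPM of the library totals would. Zm00001d017034 averaged 199 ± 81.9 CPM in the first strand column for W9706 libraries, against 3.43 ± 2.97 CPM for B73 libraries (SD, n = 3 each), with 6 counts over all 6 libraries without regard to strand. Zm00001d049692 averaged 55.3 ± 7.35 CPM there for W9706 libraries, against 7.88 ± 3.87 CPM for B73 libraries, with 0 counts without regard to strand. Its neighbour Zm00001d049691 had 3272 counts without regard to strand and 4714 and 4216 in the strand columns. For Zm00001d049692 the lowest W9706 library lay 4.60 times above the highest B73 library in that column, and for Zm00001d017034 16.5 times. Counted as a locus of Zm00001d049692 and Zm00001d049691, the first strand column gave 81.0, 73.1 and 65.3 CPM of the library totals in W9706. B73 had 14.3, 22.4 and 17.9 CPM, and the ratio of 2.92 is under the limit of 4. These locus levels are on another scale than the levels of single genes above. With both strand columns near balance, these reads cannot be given to either gene of a locus.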

How the results depend on the processing

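The rule kept 71 genes, 47 with TMM-scaled sizes, 404 at 2 times, 25 at 8 times, 151 with a mean of at least 1 CPM and 45 with at least 20 CPM. Leaving out 1 library or 1 replicate number gave 67 to 131 genes. Without B73 replicate 2 there were 130 and without W9706 replicate 1 there were 106. Leaving out W9706 replicate 3 lost 7 of the 71, Zm00001d017033 and Zm00001d052842 among them. These 7 fell under the mean of 10 CPM, since leaving out a library cannot lower the ratio. Without W9706 replicate 1 and B73 replicate 2 together, an alternative chosen after seeing the data like the sum of the strand columns and the order of rows, 168 genes were kept. The first and second strand columns gave 74 and 70, with 65 of the 71 in each.

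All 71 genes were called higher with the replicate block, DESeq2, no filter, every normalization run and each library left out, on the contrast that chose them. In these fits the share of all tested genes called higher in W9706 ran from 9.19% without W9706 replicate 2 to 36.9% with library size alone, against 15.2%. The block gave a median log2 fold change of 3.29 and 8047 calls over all genes, against 7564, and changed no call of a member. The test against 2-fold called 844 genes, 276 of them higher in W9706 (1.25% of all tested genes) and 568 lower. Of the members 69 were called higher, and Zm00001d034917 and Zm00001d011673 were not (edgeR adjusted p of 0.0593 and 0.0529). Without the 2 libraries together 69 members were called higher, against 9.99% of all tested genes. Zm00001d019925 and Zm00001d047799 were lost (edgeR adjusted p of 0.0511 and 0.0758). The median ran from 3.05 to 3.52 over the alternatives run. For 21 genes named by rule, all 252 values kept direction and call, which their choice on the same contrast nearly ensures.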
